A study of Mus musculus with 2 samples.

Results

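The cell cycle genes described here were 48 genes, chosen by symbol, out of 31053 genes counted in single cells of the newborn mouse heart. They comprised 5 G1 cyclins (Ccnd1, Ccnd2, Ccnd3, Ccne1 and Ccne2), 15 DNA replication genes, 14 mitotic kinases and regulators, 11 chromosome and spindle genes and 3 inhibitors (Cdkn1a, Cdkn1b and Cdkn2c), and all 48 had at least 1 unique molecular identifier (UMI, the tag that marks 1 captured mRNA molecule) in each library. One library was made from hearts at postnatal day 1 (P1) and one from hearts at postnatal day 7 (P7). Each library pooled 3 hearts of a single litter, digested with collagenase II for 20 minutes at P1 and for 45 minutes at P7, cleared of red blood cells and sorted for live cells. No allele or agent is named for either library. With 1 library per age there was no replicate, so no difference between the ages was tested, and age, litter and digestion time cannot be told apart. All intervals are exact 95% intervals that cover counting error only, and beside a count of 0 the limit given is that of 3 counts. For the levels and ratios of genes they take each UMI as independent, so the spread between cells is not covered.

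The cell cycle turns on cyclins, which activate cyclin-dependent kinases in a fixed order. D-type and E-type cyclins carry a cell out of G1, the MCM helicase and the nucleotide-making enzymes serve DNA synthesis, and cyclin B with Cdk1 drives mitosis before the anaphase-promoting complex destroys it. In the heart, cardiomyocytes largely leave the cycle in the first days of life, while endothelial cells and fibroblasts go on dividing as the coronary bed and the stroma grow.

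After barcodes with under 200 genes, over 8000 genes or more than 20% mitochondrial UMIs were left out, 4991 of 7836 barcodes were kept at P1 and 8511 of 9077 at P7, with medians of 10875 and 10104 UMIs per cell. The libraries shared 13 of the kept barcodes. Xist gave 57336 UMIs at P1 and 12 at P7, while 4 Y-linked genes gave 2 at P1 and 18039 at P7, so the sex of the pools differs with age as well. A total of 334 kept cells at P1 and 35 at P7 carried lung markers (2 or more UMIs of Foxf1, Hoxa5 and Tbx4, or of Sftpc and Ager).

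Classes were set by 1 gate gene at 2 or more UMIs with every other gate gene below that: Cdh5 for endothelial cells, Pdgfra for fibroblasts, Myh11 for smooth muscle, Kcnj8 for pericytes, Csf1r for macrophages, Cd3e for T cells and Upk3b for epicardium. Myocytes were Tnnt2-rich cells, with 5 or more Tnnt2 UMIs making up at least 0.5% of the cell's UMIs. Cdh5 cells were split further by Aplnr, Car4, Npr3 and Gja5. The summed markers of each named type were high in its own class, for example 4207 and 4422 CPM (summed UMIs of the genes per 1000000 UMIs of the group) of 6 endothelial genes in Cdh5 cells at P1 and P7. The Kcnj8 class was not clean by this measure: it held 5203 and 9783 CPM of 5 pericyte genes but also 8830 and 10964 CPM of 6 fibroblast genes. In Upk3b cells the fibroblast genes reached 21461 and 19649 CPM.

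Promoter sequences are shown first because their short motifs divide these genes by role. RefSeq windows on GRCm38.p6, running from 250 bases before the annotated start to 50 after it, were found for 40 of the 48 genes in 46 windows; Aurkb, Ccna2, Ccnd1, Ccnd2, Ccne2, Gins2, Mcm4 and Tpx2 had no entry. Each window was searched on both strands for the CHR element TTTGAA (cell cycle genes homology region), the CCAAT box CCAAT, and the E2F letters TTCCCGC or TTGGCGC. The CHR element stood in 17 of the 22 mitotic, chromosome and spindle genes with a window, but in only 1 of the 13 replication genes, Mcm2. The E2F letters showed the converse, with 9 of 13 replication genes against 3 of 22. Among all 32851 promoter windows in the table, 17.9% held the CHR letters, 37.4% a CCAAT box and 6.81% the E2F letters, against 78.3%, 91.3% and 13.0% of the windows of the mitotic, chromosome and spindle genes and 6.67%, 80.0% and 66.7% of those of the replication genes. No CHR or E2F letters were found for Ccne1 or Ccnd3, the G1 cyclins with a window.

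The windows of 6 genes are given, 5′ to 3′ on the strand of the gene, with every match in capitals. Ube2c (chr2:164769679-164769978, plus strand), Cdc20 (chr4:118437294-118437593, minus strand), Top2a (chr11:99024140-99024439, minus strand) and Cdca3 (chr6:124829926-124830225, plus strand) carry the CHR letters, read on either strand, together with CCAAT boxes.
Ube2c: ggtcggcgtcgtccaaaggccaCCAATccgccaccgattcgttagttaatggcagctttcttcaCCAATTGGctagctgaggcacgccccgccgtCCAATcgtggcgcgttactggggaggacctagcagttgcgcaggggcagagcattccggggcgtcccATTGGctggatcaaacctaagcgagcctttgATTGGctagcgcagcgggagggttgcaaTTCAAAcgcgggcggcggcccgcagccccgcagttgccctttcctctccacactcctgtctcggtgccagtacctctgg
Cdc20: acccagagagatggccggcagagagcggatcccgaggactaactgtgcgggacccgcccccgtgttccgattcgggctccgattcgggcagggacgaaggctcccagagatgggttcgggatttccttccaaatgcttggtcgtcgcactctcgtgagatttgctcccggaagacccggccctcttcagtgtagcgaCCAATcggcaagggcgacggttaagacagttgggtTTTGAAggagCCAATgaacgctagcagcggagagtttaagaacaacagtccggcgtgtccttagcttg
Top2a: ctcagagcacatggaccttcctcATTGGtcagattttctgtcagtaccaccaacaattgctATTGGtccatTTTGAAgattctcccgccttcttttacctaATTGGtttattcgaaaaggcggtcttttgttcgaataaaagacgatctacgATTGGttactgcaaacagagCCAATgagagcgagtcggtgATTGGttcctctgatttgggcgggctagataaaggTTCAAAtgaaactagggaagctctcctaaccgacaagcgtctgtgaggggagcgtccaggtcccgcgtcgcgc
Cdca3: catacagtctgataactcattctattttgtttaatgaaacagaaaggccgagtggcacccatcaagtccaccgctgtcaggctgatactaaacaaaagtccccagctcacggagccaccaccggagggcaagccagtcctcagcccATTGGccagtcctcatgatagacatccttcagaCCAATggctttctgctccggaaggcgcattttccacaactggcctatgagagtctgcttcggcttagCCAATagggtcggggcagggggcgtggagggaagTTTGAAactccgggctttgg

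Mcm3 (chr1:20820263-20820562, minus strand) and Pclaf (chr9:65890073-65890372, plus strand) carry E2F letters, read on either strand, with CCAAT boxes and no CHR element.
Mcm3: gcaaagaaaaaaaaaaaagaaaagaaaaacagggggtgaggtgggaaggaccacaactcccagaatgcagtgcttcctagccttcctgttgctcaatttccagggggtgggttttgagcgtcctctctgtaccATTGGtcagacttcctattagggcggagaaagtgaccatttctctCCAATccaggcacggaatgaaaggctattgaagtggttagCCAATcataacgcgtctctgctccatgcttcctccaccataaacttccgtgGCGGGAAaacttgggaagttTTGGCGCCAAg
Pclaf: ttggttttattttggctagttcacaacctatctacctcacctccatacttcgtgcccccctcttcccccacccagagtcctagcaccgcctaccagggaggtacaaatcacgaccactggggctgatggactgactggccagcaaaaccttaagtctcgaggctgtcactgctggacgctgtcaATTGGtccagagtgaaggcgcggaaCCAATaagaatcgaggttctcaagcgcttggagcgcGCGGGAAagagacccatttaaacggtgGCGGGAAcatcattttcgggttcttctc

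In the mitotic and spindle genes the CHR matches gathered at the start site. Their first bases had a median position of -10 relative to the annotated start, and 13 of 22 matches fell between -60 and 20. In Ube2c the CHR element lay at -29 with the nearest upstream CCAAT box at -57, and in Cdc20 they lay at -18 and -53. In Pclaf the E2F letters lay at -5 and 22. Matches of different motifs overlapped in 3 of the 46 windows. A match is a description of letters, and binding was not measured.

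**Figure D1:**
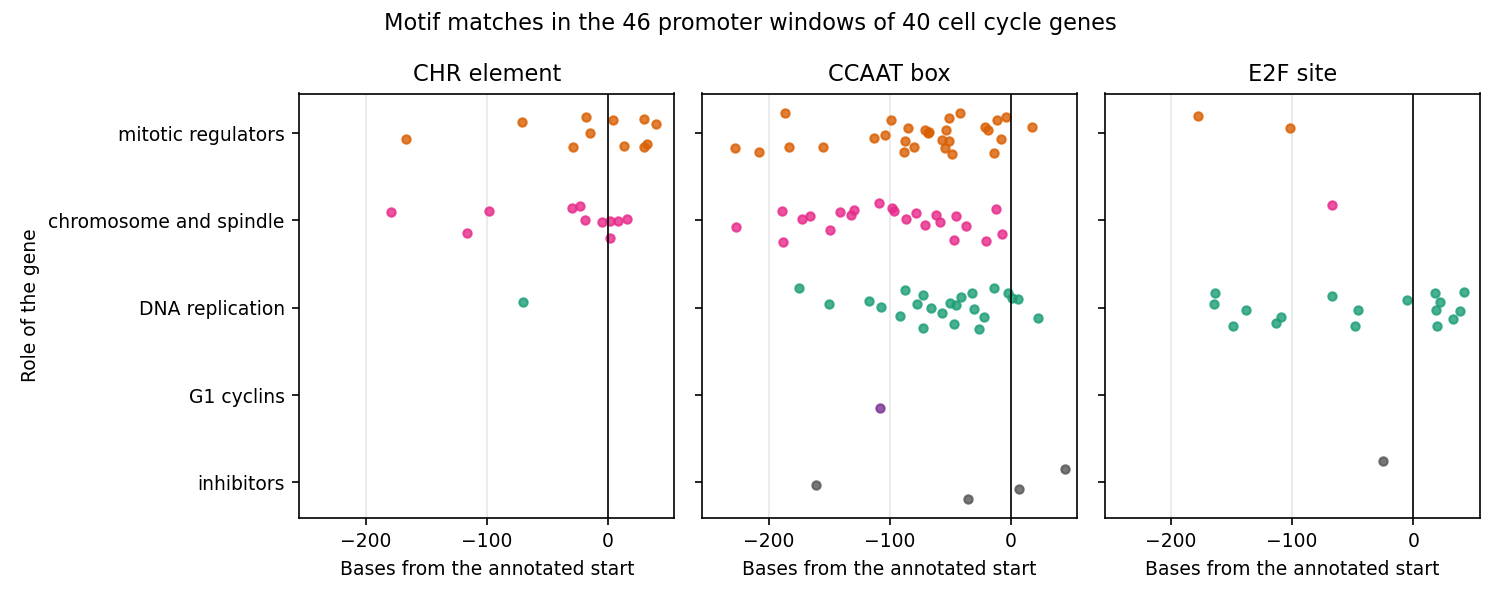
Position of each motif match, in bases from the annotated start (0), for the 46 promoter windows of 40 cell cycle genes, with 1 point per match and rows by role. CHR matches lie almost wholly in the mitotic and spindle rows near 0 (17 of 22 genes against 1 of 13 replication genes), and E2F matches lie mostly in the replication row (9 of 13 genes).

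A cell was called cycling when 3 or more of Mki67, Top2a, Ube2c, Birc5 and Cdk1 had a UMI. Mki67 coats mitotic chromosomes, Top2a untangles replicated DNA, Ube2c feeds the anaphase-promoting complex with ubiquitin, Birc5 (survivin) belongs to the chromosomal passenger complex and Cdk1 is the mitotic kinase. By this call the share of cycling cells was 8.96% at P1 (8.18 to 9.78, from 447 of 4991 cells) and 8.92% at P7 (8.32 to 9.54, from 759 of 8511 cells). The overall shares thus lay within each other's counting interval, although the classes behind them did not all move alike. Reweighting the P7 class shares to the class makeup of P1 gave 8.19%, and reweighting the P1 shares to the makeup of P7 gave 9.39%. Cycling cells were deeper than the rest, with a median of 20335 against 10329 UMIs at P1 and 15575 against 9653 at P7. S100a8-rich cells were those with no class gate gene that were rich in the neutrophil markers S100a8 and S100a9. Of them 2 of 175 were called at P1 and 1 of 55 at P7 (1.14% and 1.82%). Their median depths were 3103 and 2462 UMIs, and whether they had left the cycle was not tested.

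Pdgfra cells were the large class in which the share was lower at P7. In them 119 of 959 cells were cycling at P1 (12.4%, 10.4 to 14.7) and 169 of 1936 at P7 (8.73%, 7.51 to 10.1), a P1 over P7 ratio of 1.42 (1.11 to 1.81). The medians of 16061 and 17098 UMIs per cell were close, and with every cell thinned to 5000 UMIs the shares were 9.47% and 5.99% (ratio 1.58, 1.18 to 2.11; 51 and 32 shallower cells left out). At 2000 UMIs they were 5.19% and 3.78%, and the interval of the ratio, 0.935 to 2.00, included 1. Without the 31 lung-marked Pdgfra cells at P1 and the 1 at P7 the shares were 12.2% and 8.68%.

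Cdh5 cells showed no such difference: 180 of 1619 were cycling at P1 (11.1%, 9.63 to 12.8) and 351 of 3188 at P7 (11.0%, 9.94 to 12.1), with a ratio of 1.01 (0.839 to 1.21). P1 Cdh5 cells were deeper, at a median of 10756 against 7847 UMIs. Thinned to 5000 UMIs, which kept 1370 cells at P1 and 2434 at P7, the shares became 8.54% and 10.7% (ratio 0.799, 0.637 to 0.998). Thinned to 2000 UMIs they were 5.81% and 5.76%, with a ratio of 1.01 (0.776 to 1.31), as without thinning.

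In the smaller classes the counting intervals of the ages overlapped widely. Csf1r cells had 19 of 198 cycling at P1 (9.60%) and 14 of 195 at P7 (7.18%), Kcnj8 cells had 15 of 187 (8.02%) and 29 of 336 (8.63%), and Myh11 cells had 8 of 131 (6.11%) and 23 of 369 (6.23%). The counting intervals of the ratios, 0.635 to 2.88, 0.463 to 1.79 and 0.379 to 2.27, all included 1. Cells with no gate gene were cycling in 4.37% at P1 and 4.70% at P7.
A second call, from 5 replication genes (3 or more of Mcm5, Rrm2, Tyms, Uhrf1 and Gins2 with a UMI), picked more cells in most classes. It took 14.7% of Cdh5 cells at P1 and 13.0% at P7, and 17.6% and 13.1% of Pdgfra cells. In Csf1r cells it took 9.09% and 10.8%, the other way from the first call. Aplnr cells again stood above Car4 cells, with 28.4% against 9.91% at P1 and 20.4% against 4.91% at P7. Of the cycling Cdh5 cells, 77.2% at P1 and 65.0% at P7 also passed the replication call.

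**Figure D2:**
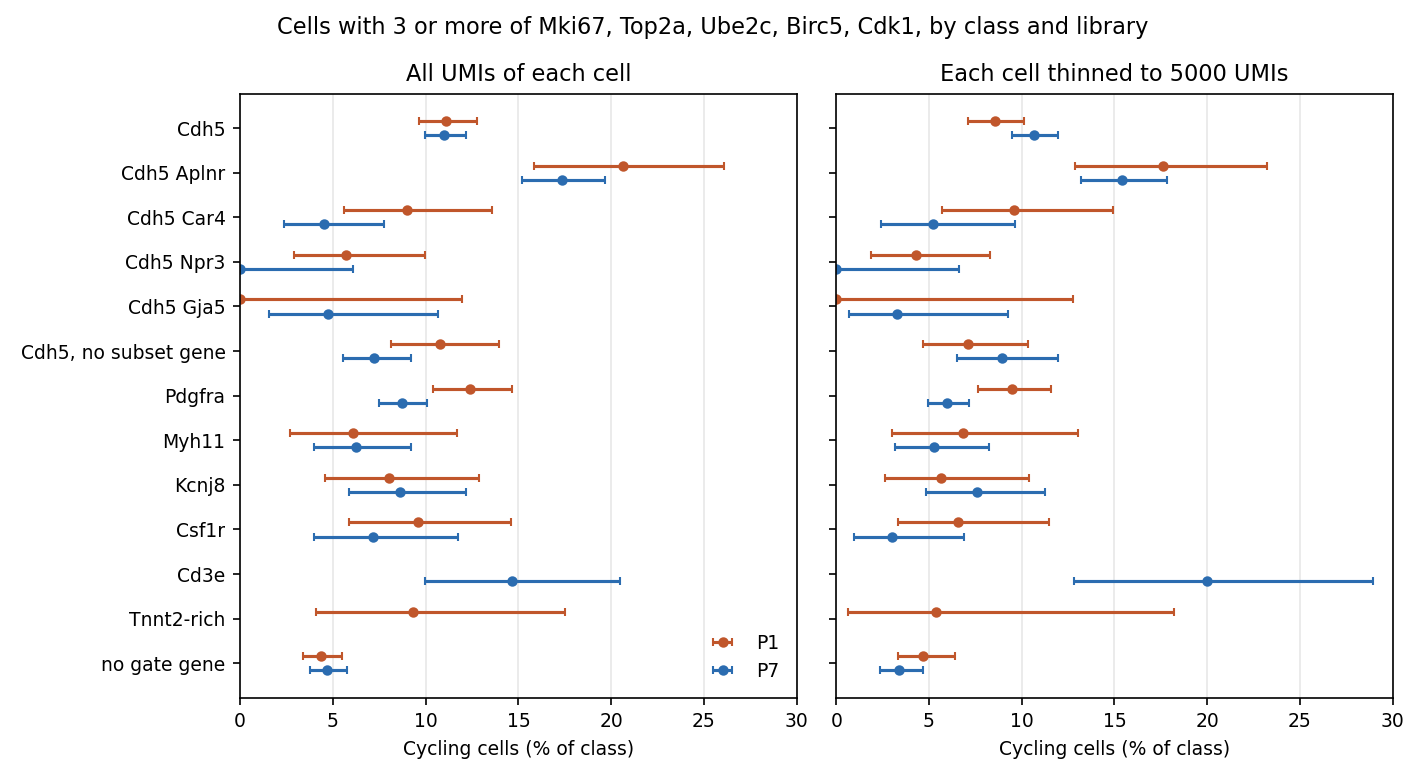
Share of cycling cells (%, points, with exact 95% binomial intervals as bars) by class for P1 and P7, with all UMIs at left and with each cell thinned to 5000 UMIs at right; groups under 20 cells are not drawn. Cdh5 Aplnr cells stand above Cdh5 Car4 cells at both ages (20.6% against 9.01% at P1, 17.4% against 4.53% at P7), and Pdgfra cells are higher at P1 than at P7 in both panels.

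Within Cdh5 cells the cycling share depended on the subset. Aplnr, the apelin receptor, marks growing capillary and venous endothelium, and Car4, a carbonic anhydrase, marks differentiated capillaries. Aplnr cells were cycling in 53 of 257 cases at P1 (20.6%, 15.8 to 26.1) and in 201 of 1158 at P7 (17.4%, 15.2 to 19.7). Car4 cells were cycling in 20 of 222 (9.01%, 5.59 to 13.6) and 12 of 265 (4.53%, 2.36 to 7.78). The Aplnr over Car4 ratio was 2.29 at P1 (1.35 to 4.04) and 3.83 at P7 (2.15 to 7.54), and at 5000 UMIs per cell it was 1.83 (1.02 to 3.45) and 2.96 (1.52 to 6.59). When cells with several subset genes, or with more than 1 class gate gene, were kept in every group they passed, the ratio was smaller at both ages, 1.49 and 1.71. A total of 445 Cdh5 cells at P1 (27.5%) and 783 at P7 (24.6%) passed 2 or more subset gates.

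In the Npr3 and Gja5 subsets few cells were cycling. In Npr3 cells, which are mostly endocardial, 11 of 193 were cycling at P1 (5.70%) and 0 of 59 at P7, which allows a share of up to 5.08%. The replication call took nearly the same share of them at each age, 17 of 193 (8.81%) and 5 of 59 (8.47%). In Gja5 cells, arterial endothelium, it was 0 of 29 at P1 (up to 10.3%) and 5 of 106 at P7 (4.72%). Cdh5 cells with none of the 4 subset genes were cycling in 10.8% at P1 and 7.22% at P7.

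The makeup of the endothelium changed between the libraries. Aplnr cells made up 15.9% of Cdh5 cells at P1 and 36.3% at P7, and held 11.9% and 26.5% of all cycling cells of the library. Over the Cdh5 cells with at most 1 subset gene, the P7 subset shares weighted by the P1 makeup gave 7.68%, and the P1 shares weighted by the P7 makeup gave 14.7%, while the shares as found were 11.5% at each age. The single subsets Aplnr, Car4 and Npr3 and the cells with no subset gene thus each had a lower share by the cycling call at P7. The sum over them did not, and Gja5 went the other way. The P1 over P7 ratio was 1.19 (0.861 to 1.62) in Aplnr and 1.99 (0.926 to 4.46) in Car4 cells. These intervals included 1, as did those of Npr3 (0.767 upward) and Gja5 cells (up to 3.99). In cells with no subset gene the ratio was 1.49 (1.01 to 2.21). At 5000 UMIs per cell the lower value at P7 held for Aplnr, Car4 and Npr3. The cells with no subset gene then had 7.12% at P1 and 8.95% at P7, but only 351 of 473 and 458 of 817 cells were deep enough. At 2000 UMIs, with 427 and 715 cells, they had 5.15% at P1 and 4.06% at P7. Fewer cells of a kind in the tissue and fewer released by digestion cannot be told apart.

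The single genes showed the Aplnr and Car4 contrast as well. A gene was called when its CPM from summed UMIs, with 0.5 counts added, differed at least 2-fold and it had 20 or more UMIs over both groups. At P1, 21 of the 48 cell cycle genes were called higher in Aplnr than in Car4 cells, where 5.74% of all 10283 genes tested were. At P7 it was 41 of 48, against 6.44% of 11443. The median log2 ratio of the 48 genes was 0.86 at P1 and 1.81 at P7, beside 0.07 and 0.04 over all genes. None of the 48 was called lower in Aplnr cells at either age, but few genes of any kind were. Only 5% of all genes lay below a log2 ratio of -0.73 at P1 and -0.75 at P7, short of the fold.

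Among the mitotic genes, Ube2c was at 196 CPM in Aplnr and 39.3 in Car4 cells at P1, and at 197 and 25.4 CPM at P7, log2 ratios of 2.31 (1.99 to 2.66) and 2.94 (2.53 to 3.41). Ccnb1, the B-type cyclin of mitotic entry, was at 56.4 and 21.8 CPM at P1 and at 50.2 and 6.09 CPM at P7. Mki67, like Ube2c a gene of the cycling call, was at 123 and 55.4 CPM, then at 121 and 27.1 CPM. In each of these genes the Aplnr level was nearly the same at both ages, and the Car4 level was the one that was lower at P7. With cells of several gates kept, Mki67 in Car4 cells was not lower at P7 (log2 P1 over P7 ratio -0.19).

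The replication genes differed less between these subsets. Their median log2 ratio was 0.79 at P1 and 1.38 at P7, against 1.10 and 1.98 for the mitotic regulators. Uhrf1, which guides maintenance methylation at new DNA, was at 43.3 and 19.9 CPM at P1 and at 35.4 and 7.75 CPM at P7. Pcna, the sliding clamp of DNA polymerase, was at 42.4 and 31.2 CPM and then at 40.9 and 25.4 CPM, log2 ratios of 0.44 and 0.67.

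Set across ages, 20 of 47 genes tested in Car4 cells were called higher at P1, beside 3.53% of all genes, and 0 higher at P7, beside 3.68%. Their median log2 P1 over P7 ratio was 0.85, against -0.06 over all genes, and 46 of 47 lay above 0. Top2a went from 105 to 33.7 CPM (log2 ratio 1.62, 1.22 to 2.07). Kif11, the motor that separates spindle poles, went from 19.4 to 2.77 CPM, on 41 and 5 UMIs. Pclaf, the PCNA-associated factor, went from 78.6 to 36.0 CPM. Ccnd2 was the 1 gene below 0, at 82.4 CPM at P1 and 141 CPM at P7. The count of 20 genes was 2 when cells of several gates were kept and 6 when 1 UMI passed a gate. With cells of several gates kept 9 of the 20 changed sign, with log2 ratios down to -0.42 for Uhrf1, among them Pclaf (-0.07) and Kif11 (-0.04), while Top2a stood at 0.25 or more in every alternative. Neutrophil markers stood at 599 CPM in P1 Car4 cells and 15.5 at P7, erythroid markers at 130 and 3079 CPM, and their part was not tested.

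In Aplnr cells no gene was called in either direction, beside 4.44% of all genes higher at P1 and 3.83% higher at P7. The median log2 ratio of the 48 genes was 0.09, against -0.04 over all genes. The lung-marked cells, 33 of 257 Aplnr and 23 of 222 Car4 cells at P1, were 7 of 1158 and 1 of 265 at P7. Without them 23.2% of Aplnr and 9.55% of Car4 cells were cycling at P1.

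Over the whole Cdh5 class the genes differed little between P1 and P7. One of 48 was called higher at P1, beside 5.45% of all 13443 genes, and 0 higher at P7, beside 3.79%. The median log2 ratio was -0.13, against -0.05 over all genes, and 11 of 48 lay above 0. Both shares called were below those of all genes. The called gene was the inhibitor Cdkn1a (p21), which is described with the other inhibitors.

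The roles did not sit at the same place. In Cdh5 cells the chromosome and spindle genes had a median of -0.35, the mitotic regulators -0.22, the replication genes -0.10 and the G1 cyclins 0.09. Cenpf, a kinetochore protein, was at 78.4 CPM at P1 and 109 at P7 (log2 ratio -0.47, -0.56 to -0.38), and Cdc20, the activator of the anaphase-promoting complex, was at 51.0 and 67.3 CPM (-0.40, -0.51 to -0.29). Top2a was at 102 and 100.1 CPM and Mcm6, a helicase subunit, at 63.2 and 66.0 CPM, with intervals that included 0. Cdca3, a trigger of mitotic entry, went the other way with 30.9 CPM at P1 and 19.6 at P7 (0.66, 0.49 to 0.83).

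In Pdgfra cells the genes lay on 1 side. A total of 45 of 48 had a log2 P1 over P7 ratio above 0, where 54.3% of all genes did, and the median was 0.36 against 0.03. Few reached the fold: 1 of 48 was called higher at P1, beside 6.49% of all 13737 genes, and 0 higher at P7, beside 4.19%. The differences were thus small in size and mostly alike in sign, and the 3 genes below 0 were the inhibitors Cdkn1a, Cdkn1b and Cdkn2c.

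The gene that passed the fold in Pdgfra cells was Ccnd1, cyclin D1, the partner of Cdk4 and Cdk6 that responds to growth factors, at 297 CPM at P1 and 146 at P7 (log2 ratio 1.03, 0.97 to 1.08). It lay near the fold and missed it in 4 of 13 alternatives, with a ratio of 0.81 to 1.07 over all of them. Next came Cdca3 at 36.7 and 19.4 CPM (0.92, 0.76 to 1.08). Among the replication genes Pclaf was at 108 and 61.6 CPM (0.81), Uhrf1 at 26.2 and 15.5 CPM (0.76) and Mcm3, a helicase subunit, at 44.0 and 30.5 CPM (0.53). All 15 replication genes were above 0, between 0.24 and 0.81.

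The mitotic regulators in Pdgfra cells ran from 0.20 to 0.92. Bub1, a kinase of the spindle checkpoint, was at 12.3 and 7.61 CPM, Birc5 at 92.1 and 57.1 CPM, and Plk1, the polo kinase, at 13.0 and 8.44 CPM. The chromosome and spindle genes had the lowest median of the 4 promoting roles, 0.26, with Top2a at 0.62 but Mki67 at 0.13 and Cenpf at 0.05. For Cenpf the levels of 71.9 and 69.5 CPM had an interval of the ratio that included 0. The part of differing shares of fibroblast kinds at P1 and P7 was not tested.

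**Figure D3:**
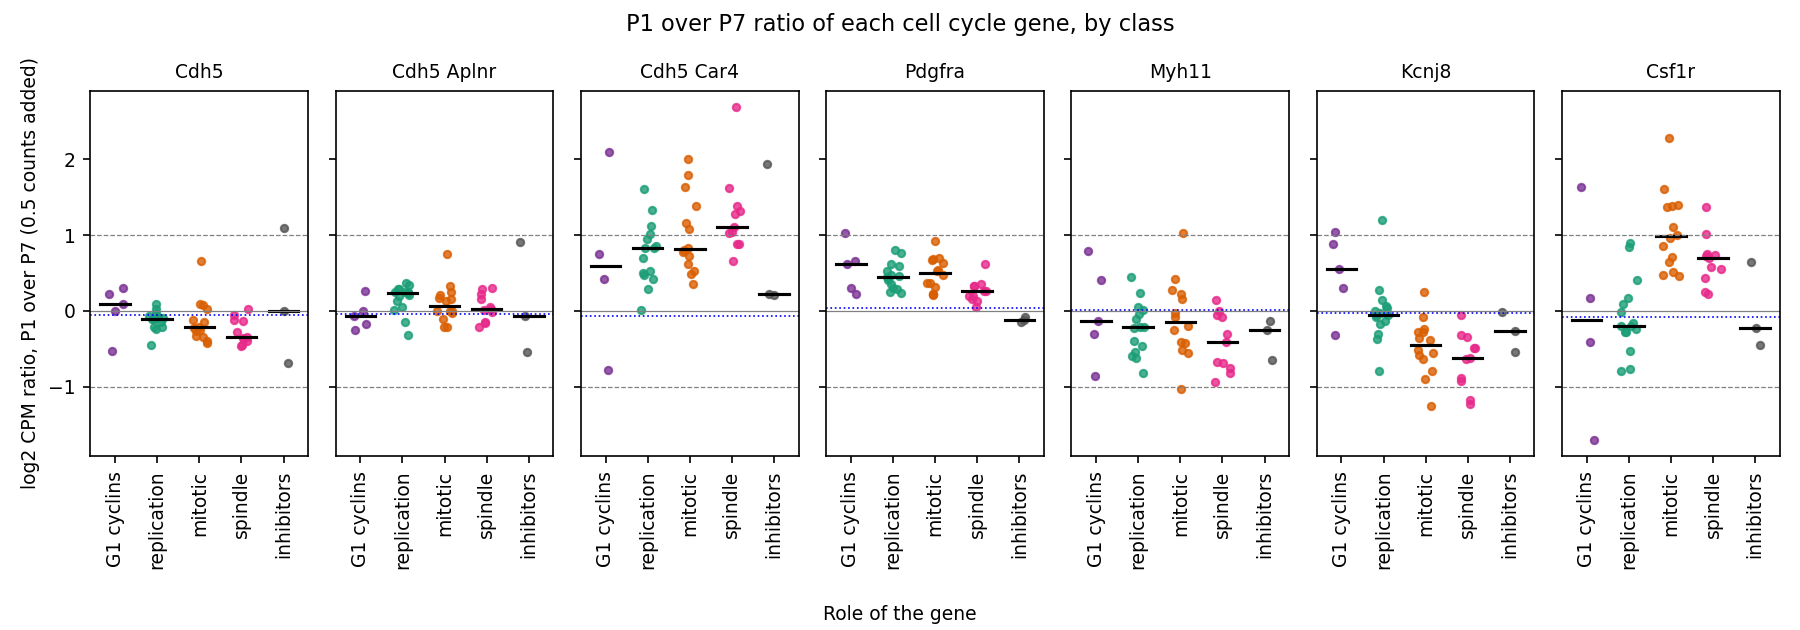
log2 ratio of CPM, P1 over P7, for each cell cycle gene (points) by role in 7 cell groups, with black bars for role medians, the blue dotted line for the median of all genes and dashed lines for 2-fold. In Pdgfra cells 45 of 48 genes lie above 0, in Cdh5 Car4 cells 46 of 47, and in Csf1r cells the mitotic median (0.98) lies above the replication median (-0.19).

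In Csf1r cells the mitotic genes were higher at P1, while the median of the replication genes lay near that of all genes. A total of 10 of 47 genes tested were called higher at P1, beside 3.07% of all 9572 genes, and 1 higher at P7, beside 5.86%. All 14 mitotic regulators lay above 0, with a median of 0.98, and all 11 chromosome and spindle genes did, with a median of 0.70. Of all genes 41.8% lay above 0, with a median of -0.08. The 15 replication genes had a median of -0.19 and 5 of them lay above 0. The class held 19 and 14 cycling cells among 198 and 195.

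Plk1 gave 35 UMIs at P1 and 6 at P7 in Csf1r cells, levels of 14.6 and 2.80 CPM (log2 ratio 2.29, 1.12 to 3.92). Cdc20 was at 40.9 and 15.4 CPM (1.39, 0.83 to 2.02), Nusap1, a microtubule bundler, at 36.7 and 14.0 CPM (1.37, 0.78 to 2.04), and Cdca3 at 37.5 and 12.1 CPM (1.61, 0.99 to 2.32). Mki67 was at 82.6 and 70.9 CPM, a ratio of 0.22 whose interval included 0. Among the replication genes Mcm2 was at 15.8 and 27.5 CPM (-0.79, -1.43 to -0.18) and Gins2, part of the replicative helicase, at 21.3 and 36.4 CPM (-0.77, -1.31 to -0.25). The count of 10 became 3 with 1 UMI as the gate, beside 3.91% of all genes. It was also 3 without the 5% of cells with the most UMIs in each class and library, beside 2.71%. Of the 11 genes called in either direction Aurkb changed sign, to -0.03 without those cells. Neutrophil markers stood at 4524 CPM in P1 and 1515 in P7 Csf1r cells, and their part was not tested.

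In Myh11 and Kcnj8 cells the medians were below 0, beside 0.01 and -0.02 over all genes. The Kcnj8 class also held fibroblast markers, as given above. Myh11 cells had a median log2 ratio of -0.22, with 1 gene called higher at P1, beside 5.14% of all genes, and 1 higher at P7, beside 3.39%. Those were Bub1, at 11.8 and 5.82 CPM on 19 and 23 UMIs, and Ccna2, cyclin A of S phase and G2, at 21.2 and 44.0 CPM on 34 and 174 UMIs. Few cells held them: Bub1 had a UMI in 2.29% of P1 and 2.98% of P7 Myh11 cells, Ccna2 in 4.58% and 6.23%. Kcnj8 cells had a median of -0.29, with 2 genes called higher at P1, beside 3.16%, and 3 higher at P7, beside 2.68%. The 2 were Rrm2, a subunit of ribonucleotide reductase, at 37.0 and 16.0 CPM, and Ccne1, cyclin E of the G1 to S step, at 10.6 and 5.10 CPM. Rrm2 had a UMI in 6.42% of P1 and 6.85% of P7 Kcnj8 cells, Ccne1 in 4.28% and 2.98%. The 3 were the kinase Aurka at 5.06 and 12.6 CPM, Cenpf at 31.9 and 75.1 CPM, and Prc1, a bundler of the central spindle, at 28.9 and 65.6 CPM. All 11 chromosome and spindle genes lay below 0 in Kcnj8 cells, with a median of -0.63, where 47.7% of all genes lay above 0. The counts of called genes moved with the cells kept. Without the 5% of cells with the most UMIs the number higher at P7 was 13 in Myh11 cells, beside 3.90% of all genes. In Kcnj8 cells it was 12, beside 2.98%. Without those cells the ratio of Bub1 in Myh11 cells changed sign, with under 20 UMIs left, and that of Rrm2 in Kcnj8 cells turned to -0.36. With 1 UMI as the gate Ccna2 in Myh11 cells turned to 0.17. At that gate 12 genes were called higher at P1 in Myh11 cells, beside 5.51% of all genes. Neutrophil markers stood at 1257 CPM in P1 and 9.11 in P7 Myh11 cells, and their part was not tested.

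Cdca3, Ccne1 and Ccnd3 had a value above 0 in each of the 5 main classes. Cdkn1b had a value below 0 in each, from -0.01 in Cdh5 to -0.45 in Csf1r cells. Over all genes 41.8% to 54.3% lay above 0 in a single class. The share of all genes with 1 sign in all 5 was not counted, so whether these genes stand out is not known. In Myh11 cells the intervals of Ccne1 and Cdkn1b included 0. In Kcnj8 cells the level intervals of Cdkn1b at P1 and P7 overlapped (55.5 to 78.7 and 70.3 to 91.1 CPM). Its Cdh5 value was close to no difference. The log2 ratios of Cdca3 were 0.66 in Cdh5, 0.92 in Pdgfra, 0.22 in Myh11, 0.25 in Kcnj8 and 1.61 in Csf1r cells, with intervals that included 0 in Myh11 and Kcnj8 cells. Those of Ccnd3 were 0.22, 0.22, 0.40, 0.55 and 0.17, with an interval that included 0 in Csf1r cells. Over all kept cells Cdca3 was at 29.6 CPM at P1 and 18.8 at P7. Its promoter window given above carries a CHR element 30 bases after the start, and a link to these values was not tested.

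The D-type cyclins followed class more than cycling. Ccnd1 was highest in Car4 cells at P1 (715 CPM, 680 to 752), followed by Aplnr cells (583, 558 to 609), and at P7 the order was reversed, with 614 CPM in Aplnr and 425 in Car4 cells. Over all Cdh5 cells it was at 534 CPM at each age. It then stood at 297 CPM in Pdgfra, 264 in Myh11 and 249 in Kcnj8 cells at P1, with neighbours in this order having overlapping intervals, and at 65.1 in Csf1r cells. At P7 Myh11 cells were at 290 CPM, Csf1r at 212, Pdgfra at 146 and Kcnj8 at 135, the last 2 with overlapping intervals. Npr3 cells were low at both ages, with 84.5 and 15.03 CPM, although they share the Cdh5 gate.

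In Csf1r cells Ccnd1 was the 1 gene called higher at P7 (log2 P1 over P7 ratio -1.70, -1.98 to -1.44). Fibroblast markers in those cells were at 157 CPM at P1 and 1748 at P7, and their part was not tested. In Kcnj8 cells Ccnd1 was higher at P1, at 249 against 135 CPM (0.89, 0.69 to 1.08).

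Ccnd2, cyclin D2, was highest in Myh11 cells, at 488 CPM at P1 and 603 at P7. Npr3 cells came next, with 418 and 391 CPM, and Kcnj8 cells had 276 and 345 CPM. Gja5 cells were at 215 and 306 CPM, above Aplnr cells at 108 and 121 CPM and Car4 cells at 82.4 and 141 CPM. The subsets of endothelium with the most Ccnd2, Npr3 and Gja5, were those with the least Ccnd1. Ccnd3, cyclin D3, ran from 166 CPM in Kcnj8 cells at P7 to 336 in Pdgfra cells at P1 among the Pdgfra, Myh11 and Kcnj8 classes, and stood at 781 CPM (736 to 828) in the 191 Cd3e cells of P7.

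**Figure D4:**
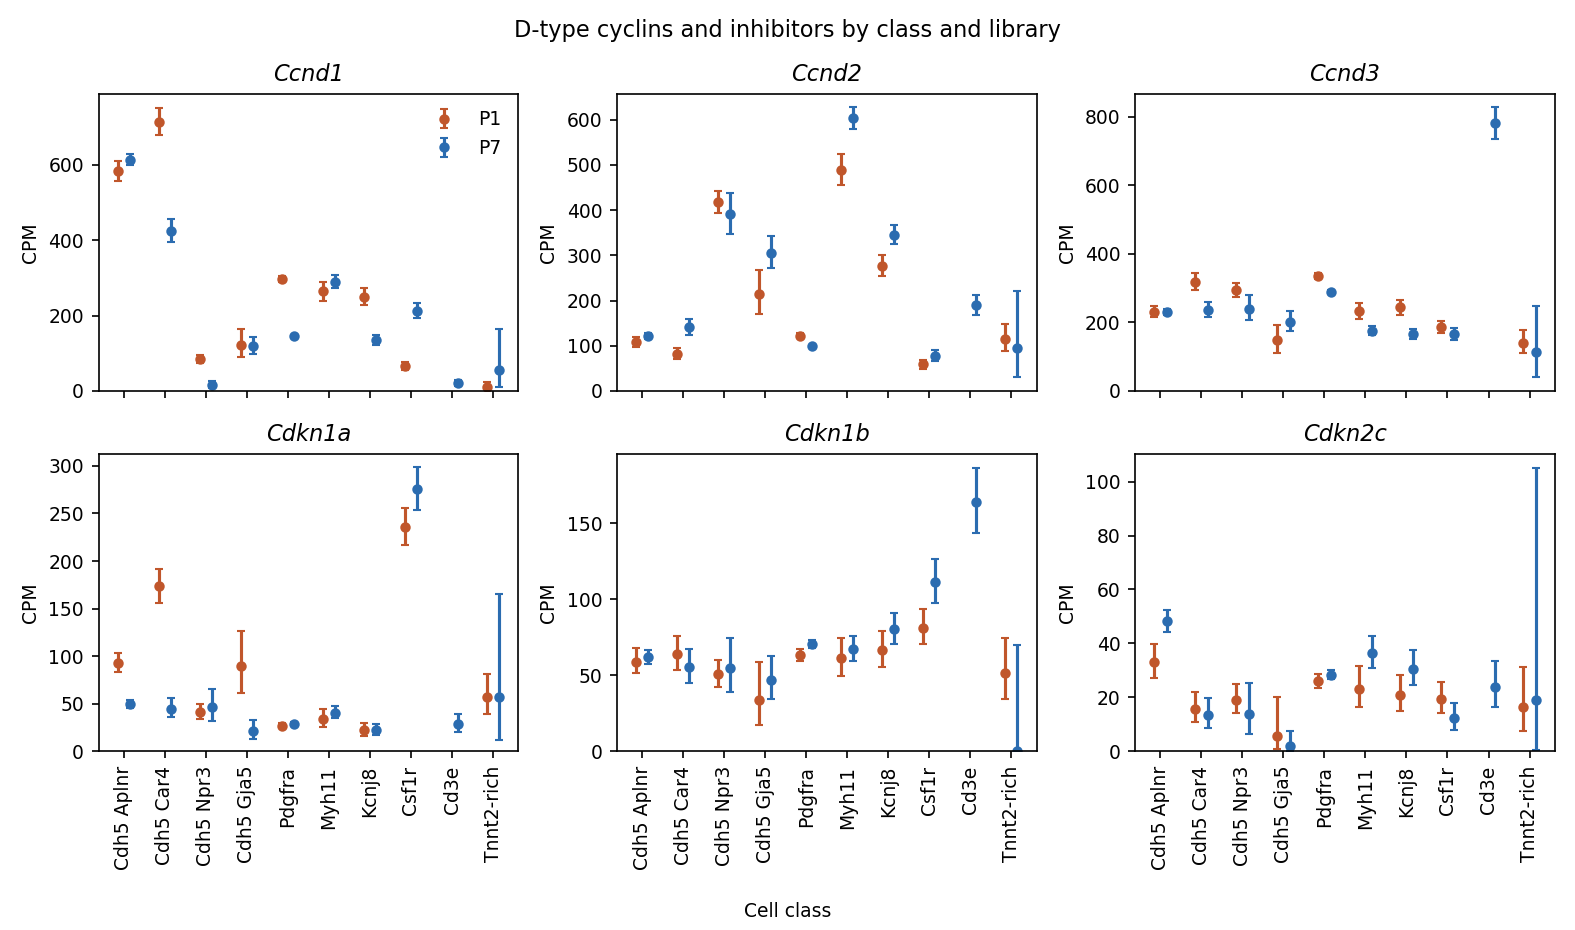
CPM from summed UMIs (points, with exact 95% Poisson intervals as bars) of the D-type cyclins and the inhibitors by class for P1 and P7; groups under 10 cells are not drawn. Ccnd1 is highest in Car4 and Aplnr cells, Ccnd2 in Myh11 and Npr3 cells, Ccnd3 in Cd3e cells and Cdkn1a in Csf1r cells (236 and 275 CPM).

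The inhibitors each had a pattern of their own. Cdkn1a, the p53 target p21, was highest in Csf1r cells, at 236 CPM at P1 and 275 at P7. In Cdh5 cells it was at 110 CPM at P1 and 51.3 at P7 (log2 ratio 1.10, 1.00 to 1.20), with Car4 cells at 173 and 44.8, Aplnr cells at 93.1 and 49.6, Gja5 cells at 89.3 and 21.3, and Npr3 cells at 41.5 and 46.5 CPM. Pdgfra, Myh11 and Kcnj8 cells lay between 21.8 and 40.5 CPM at both ages. The higher P1 level was thus seen in 3 of the 4 endothelial subsets and in none of these stromal classes. Gja5 cells gave few counts, with 32 UMIs in 20.7% of 29 cells at P1 and 21 UMIs in 16.0% of 106 cells at P7. Digestion time differed with age, and its part cannot be told apart.

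Cdkn1b (p27) lay between 50.5 and 81.3 CPM in Aplnr, Car4, Npr3, Pdgfra, Myh11, Kcnj8 and Csf1r cells of both ages. The exception among these was Csf1r cells at P7 (111 CPM). Gja5 cells were lower, at 33.5 CPM at P1 and 46.7 at P7, and Upk3b cells were at 40.9 and 85.6 CPM. The P7 Cd3e cells had 164 CPM. Cdkn2c (p18), which binds Cdk4 and Cdk6, was highest in Aplnr cells, at 33.0 CPM at P1 and 48.3 at P7. At P1 its interval there overlapped those of several classes. Among them were Pdgfra (26.0 CPM), Myh11 (23.1, 16.2 to 31.8) and Kcnj8 cells (20.8, 14.9 to 28.2). In Cdh5 cells it was at 20.1 CPM at P1 and 32.6 at P7 (log2 ratio -0.69, -0.87 to -0.52).

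T cells, myocytes and epicardial cells were few. The Cd3e class held 2 cells at P1 and 191 at P7, of which 28 were cycling (14.7%, 9.97 to 20.5). Of the P7 cells with a UMI of Rag1, Rag2 or Dntt, the recombination genes of thymocytes, 21 of 73 were cycling (28.8%, 18.8 to 40.6), and of those without, 7 of 118 (5.93%, 2.42 to 11.8). The former had a median of 3573 UMIs and the latter 5999, so the higher share stood in the shallower cells. In the P7 Cd3e cells Pclaf reached 462 CPM (113 or less in the other P7 classes and subsets), Rrm2 322 CPM, Uhrf1 118 CPM and Ube2c 258 CPM, whereas Cdk1, at 86.9 CPM, stayed below the 138 CPM of P7 Aplnr cells.

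Tnnt2-rich cells were cycling in 8 of 86 cases at P1 (9.30%, 4.10 to 17.5) and 1 of 15 at P7 (6.67%, 0.169 to 31.9), at median depths of 4058 and 2400 UMIs. The replication call took fewer of them, 2 of 86 at P1 (2.33%, 0.283 to 8.15) and 0 of 15 at P7. Of the 8 cycling cells at P1, 6 did not pass it. At P1 their cardiomyocyte markers were at 38819 CPM, their smooth muscle markers at 1497, their fibroblast markers at 956 and their endothelial markers at 44.0 CPM. They carried Ube2c at 196 CPM and Cenpa, the centromeric histone, at 139 CPM at P1, but Mki67 at 3.67 CPM, on 2 UMIs. Upk3b cells were cycling in 3 of 42 at P1 and 0 of 19 at P7 (up to 15.8%). Of these, 21 cells at P1 and 1 at P7 carried lung markers, and 2 of the other 21 cells at P1 were cycling.

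The plot of the 48 genes over 15 groups shows these classes side by side. The mitotic and spindle blocks rise and fall together across groups, while the D-type cyclins and the inhibitor Cdkn1a do not follow them. Among the inhibitors, Cdkn2c followed the summed genes of the cycling call most closely over 21 groups (Pearson r 0.65). Cdkn1b (0.43) and Cdkn1a (0.12) followed them less closely. In P7 Npr3 cells Bub1, Bub1b, Cdca3, Mki67, Kif11, Nusap1 and Pclaf had 0 UMIs in 59 cells, which allows a level of up to 4.10 CPM (3 counts).

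**Figure D5:**
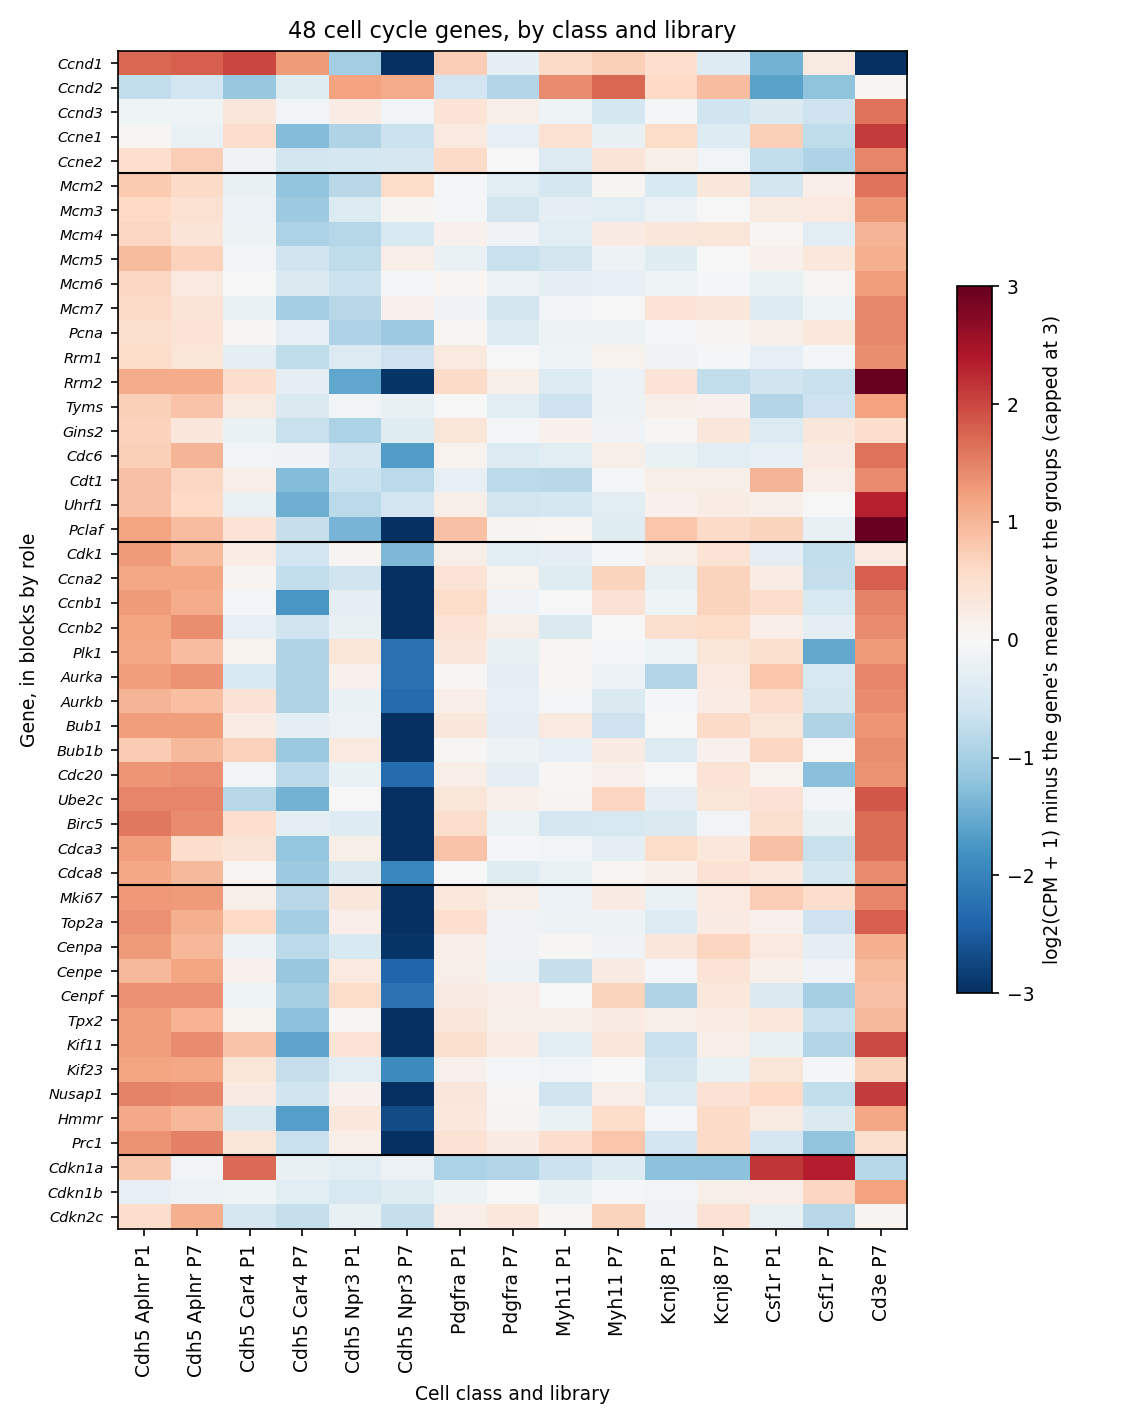
log2(CPM + 1) of the 48 genes (rows, in blocks by role) in 15 groups of class and library (columns), each row centred on its own mean and coloured from -3 (blue) to 3 (red). The mitotic and spindle blocks are red in Aplnr cells of both ages and in Cd3e cells of P7 and blue in Npr3 cells of P7, while Ccnd2 is red in Myh11 and Npr3 cells and Cdkn1a in Csf1r and P1 Car4 cells.

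Cycling cells were then set beside the other cells of the same class, leaving out the 5 genes of the call. The groups were made from measured values, so this is a description. Of the 43 remaining genes, 38 in Cdh5 cells at P1 (6.21% of all genes were called), 39 in Cdh5 cells at P7 (6.41%), 38 in Pdgfra cells at P1 (5.79%) and 38 in Pdgfra cells at P7 (7.44%) were called higher in cycling cells. The genes not called higher were the D-type cyclins, Cdkn1b and, outside P7 Cdh5 cells, Cdkn1a.

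The size of the difference went with role, but the call favours this order. Its 5 genes all come from the mitotic and the chromosome and spindle roles. Cells that passed only the replication call, 99 of 1619 Cdh5 cells at P1, counted among the other cells. Mitotic regulators had median log2 ratios of 5.61 and 5.51 in Cdh5 cells and 5.97 and 6.88 in Pdgfra cells at P1 and P7. Replication genes had 2.14, 1.98, 2.40 and 2.39. Ccnb1 was at 158 CPM in cycling and 0.948 CPM in other Cdh5 cells at P1, whereas Mcm6 was at 141 and 46.6 CPM. Within the replication genes Pclaf (412 and 6.82 CPM) and Rrm2 (192 and 4.99 CPM) differed by far more than the MCM genes.

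The G1 cyclins split. Ccne1 was at 32.8 CPM in cycling and 1.01 CPM in other Cdh5 cells at P1. Ccnd1 differed little, with log2 ratios between -0.20 and 0.31 over the 4 comparisons. Ccnd2 was lower in cycling cells in all 4, with log2 ratios of -1.17 and -1.36 in Cdh5 cells and -0.99 and -1.03 in Pdgfra cells, where 5% of all genes lay below -1.54, -1.16, -1.05 and -0.93. Within Cdh5 cells Ccnd2 and the cycling share both differed by subset, as given above, and the part of subset makeup was not tested. Among the inhibitors Cdkn2c was raised in cycling cells, at 89.9 against 5.31 CPM in Cdh5 cells at P1 and 153 against 7.41 at P7. Cdkn1a was at 130.5 CPM in cycling and 34.8 in other Cdh5 cells at P7 (1.91, 1.76 to 2.06), but at 132 and 105 CPM at P1 (0.33, 0.18 to 0.48). Its cycling-cell level was nearly the same at both ages, and the level in the other cells was the one that was lower at P7.

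A further 75 genes of the cell cycle, listed apart from the 48, were counted in the same comparisons. In Cdh5 cells 0 of 75 were called higher at P1, beside 5.45% of all genes, and 2 higher at P7, beside 3.79%. The 2 were Cdkn2a (the p16 and p19 locus, 5 and 37 UMIs) and Chek2, a checkpoint kinase, at 22.3 and 56.1 CPM. The 3 largest ratios were those of Cdkn1c (p57, an imprinted inhibitor) at 553 and 290 CPM (0.93), E2f1 at 0.30 and E2f7 at 0.29, and the third lowest was Kif2c, a microtubule depolymerase, at -0.54. In Pdgfra cells 0 of 75 were called in either direction, beside 6.49% of all genes higher at P1 and 4.19% higher at P7. Of the 75, 65 lay above 0, where 54.3% of all genes did, with a median of 0.28. The largest were Hmgb2, a chromatin protein, at 402 and 211 CPM (0.93), Mybl2 at 8.18 and 4.38 CPM (0.90) and Gmnn, which inhibits Cdt1, at 44.1 and 25.05 CPM (0.82). The lowest were Cdkn2a (-0.50), Cdkn2d (-0.35) and Cdc25b (-0.32). In Car4 cells 11 of 68 tested were called higher at P1, beside 3.53% of all genes, and 1 higher at P7, beside 3.68%. In Csf1r cells 5 of 67 were called higher at P1, beside 3.07%, and 3 higher at P7, beside 5.86%.

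Over the 21 groups of class and library with at least 50 cells, the pattern of the summed 5 cycling genes was followed most closely, among the 43 other cell cycle genes, by Nusap1 (Pearson r 0.97), Ccna2 (0.95), Cdca8 (0.95) and Bub1 (0.94). It was followed least by Ccnd2 (-0.33), Cdkn1a (0.12) and Ccnd3 (0.28), and the MCM genes lay between 0.37 and 0.48. Outside both lists, the 10 genes with 500 or more UMIs and the highest r included Knstrn (0.93), Ckap2l (0.93), Troap (0.92), Sgo2a (0.91), Ska1 (0.91), Spc24 (0.90), Pimreg (0.90), Trip13 (0.89) and Spdl1 (0.88). The groups come from only 2 libraries, so these values describe the pattern only.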

How the data were processed

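The authors deposited 2 matrices of raw UMI counts per gene and cell from 10x 3′ libraries. They had aligned the reads to mm10 (GRCm38) with Cell Ranger 3.1.0. Counts were summed per class and library, divided by all UMIs of the group and given as CPM. Ratios had 0.5 counts added, and genes with under 20 UMIs over both groups were not tested. Intervals are exact (Clopper-Pearson for shares, Poisson for levels, conditional binomial for ratios). Since each age is 1 library, no test between ages was possible, and a call is a fold of 2 or more. Cells were thinned to 2000 or 5000 UMIs at random with a fixed seed. Doublets were not called; cells passing several class gates were left out of the classes. Barcode totals were 63585504 UMIs at P1 and 98346195 at P7. The 48 genes, the list of 75, the gates, the motifs and the cycling call were chosen with earlier results of these data known. The named genes were all 48, the 3 highest and 3 lowest of the 75 in Cdh5 and Pdgfra cells, and the 10 other genes most like the cycling genes, of which 1 is not reported here; examples among the 48 were chosen after their values were seen. Ratios were tested on simulated data. Python 3.11.15, numpy 2.4.6, scipy 1.17.1, pandas 2.3.3 and matplotlib 3.10.9 were used.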

Additional observations from a re-analysis of the deposited data

Results flagged for a closer look

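The difference of Ccnd1 between P1 and P7 ran in opposite directions in 2 classes, with a log2 P1 over P7 ratio of 1.03 in Pdgfra cells and -1.70 in Csf1r cells. With 1 library per age the difference between the classes was not tested. Aurka, a kinase of the spindle poles, likewise had 1.39 in Csf1r cells and -1.26 in Kcnj8 cells, and this difference was not tested either.

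Barcodes with under 200 genes, which no comparison used, also held UMIs of Mki67, Top2a, Ube2c, Birc5 and Cdk1. There were 144 of these UMIs in 2253 such barcodes at P1, or 45.9 CPM against 376 CPM in the kept cells. At P7 there were 28 in 160 barcodes, or 133 CPM against 366 CPM. A median of 86.9% of the UMIs in these P1 barcodes and 72.8% in the P7 barcodes was mitochondrial.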

How the results depend on the processing

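The P1 over P7 ratio of the cycling share kept within its interval in 111 alternatives, ranging from 1.28 to 1.58 in Pdgfra cells. In the other 2 it moved to 0.799 in Cdh5 cells thinned to 5000 UMIs and to 3.56 in Csf1r cells thinned to 2000. The intervals of the smaller classes were wide, so staying within them says little. The ratio ran from 0.489 to 1.08 in Kcnj8 and from 0.477 to 1.58 in Myh11 cells. The Aplnr over Car4 ratio, whose alternatives were added after its values had been seen, became 1.71 at P7 with cells in several gates kept. P7 class shares at the P1 makeup gave 8.19%.

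Counts of genes past the fold stayed within 1.5 times in 142 alternatives and moved beyond it in 40. Of the 40 genes called in a class, 13 changed sign in at least 1 alternative, 9 of them in Car4 cells, 2 in Myh11, 1 in Kcnj8 and 1 in Csf1r cells. With 1 UMI as the gate the counts higher at P1 were 0 in Pdgfra, 12 in Myh11, 1 in Kcnj8, 3 in Csf1r and 6 in Car4 cells. With cells in several gates kept they were 0 in Pdgfra, 0 in Kcnj8, 6 in Csf1r, 1 in Aplnr and 2 in Car4 cells, and those higher at P7 were 0 in Myh11, 0 in Kcnj8 and 2 in Csf1r cells. Without the 5% of cells with the most UMIs they were 0 in Myh11, 0 in Kcnj8, 3 in Csf1r and 31 in Car4 cells at P1, and 13 in Myh11 and 12 in Kcnj8 cells at P7. With a fold of 1.5 they were 2 in Cdh5, 13 in Pdgfra, 2 in Myh11, 21 in Csf1r, 2 in Aplnr and 34 in Car4 cells at P1, and 1 in Cdh5, 11 in Myh11, 11 in Kcnj8, 3 in Csf1r and 1 in Car4 cells at P7, beside 7.70% to 12.6% of all genes at P1 and 8.81% to 14.4% at P7 over these groups. With means of per-cell CPM they were 0 in Pdgfra, 2 in Myh11 and 0 in Kcnj8 cells at P1, and 3 in Myh11, 10 in Kcnj8 and 3 in Csf1r cells at P7. With 50 UMIs required they were 0 in Myh11 and 1 in Kcnj8 cells at P1. At the other settings named here 1.80% to 7.67% of all genes were past the fold at P1 and 1.46% to 9.80% at P7. Myh11 cells had 0 higher at P7 with a mitochondrial limit of 10% and 2 without lung-marked cells. A higher or lower fold or minimum acts by its construction, and the other causes were not tested.

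No paired analysis was possible because each age is 1 library, and for the same reason there was no replicate to leave out. In Tnnt2-rich cells 4 alternatives left a library with 0 cycling cells and gave no ratio. Few cells stood behind the shares of the smaller classes, with 8 to 29 cycling cells per library in Myh11, Kcnj8 and Csf1r cells.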
